A study of Homo sapiens with 2 samples.

Results

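The last part of cholesterol synthesis was examined in HCT116 cells, an established human colon carcinoma line, through the 9 genes LSS, CYP51A1, TM7SF2, LBR, MSMO1, NSDHL, EBP, SC5D and DHCR7. They are the genes of the stretch from lanosterol synthase onwards whose symbol the array's annotation table lists, and they make up 9 of 22458 named probe sets. The rule that picks them is their place in the pathway, and it was set with earlier results of these data known. All 9 carry 1 probe set each. Other enzymes of the stretch were not analysed here.

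Total RNA was labelled with biotin for Affymetrix expression arrays. The DMSO group is 1 array from cells given 0.1% DMSO, and the LXR623 group is 1 array from cells given 20 µM of LXR623, a synthetic agonist of the liver X receptors, for 24 h. According to the labels, cells had been grown in RPMI with 10% FBS, and treatment was in RPMI with 1.5% FBS. A single cell line and a single culture per condition limit both groups as a model. There is no replicate, so no value below has an error and no test was run. Anything else that set the cultures apart, cell density for example, cannot be told apart from an effect of LXR623. With bulk RNA, fewer cells that express a gene and less RNA of it per cell cannot be told apart either.

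Lanosterol is the first sterol of the pathway, formed when squalene epoxide folds into the ring system. In the steps that follow, the enzymes of the endoplasmic reticulum strip methyl groups from the ring and move or reduce its double bonds until cholesterol is made. Most genes of the pathway are targets of SREBP2, a transcription factor that is released from the endoplasmic reticulum when its membranes are poor in sterol. LXR is activated by oxysterols and by some intermediates of the pathway itself, and its targets export cholesterol and make fatty acids.

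The values are log2 intensities. A probe set was counted as measured when the higher of its values in both arrays reached 4.42, the median of the table, which held for 12279 of 23786 probe sets. Differences are LXR623 minus DMSO on the log2 scale, and a gene was counted as higher or lower when it differed by at least 1.5-fold, which is 0.58 on that scale. Of 10 epithelial and colon markers 6 were measured, namely EPCAM at 10.15 and 10.21 in the DMSO and LXR623 arrays, KRT8 at 5.63 and 7.14, CDH1, KRT18, KRT19 and CDX2. VIL1, CEACAM5, CDX1 and LGALS4 were under the level of measurement in both arrays. Of 15 markers of fibroblasts, immune cells, endothelium and hepatocytes in the table, 1 was measured, COL1A1, with 5.58 and 5.70. The highest probe set of the remaining markers was under the level of measurement in both arrays.

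All 9 late sterol ring enzymes were measured. LSS, CYP51A1, TM7SF2, MSMO1 and SC5D were at least 1.5-fold higher in the LXR623 array, and 0 of the 9 were at least 1.5-fold lower. Over all measured probe sets, the share at least 1.5-fold higher was 6.30%, and the share at least 1.5-fold lower was 5.78%. Among the 5581 probe sets whose mean value lay in the range of the enzymes, from 6.85 to 10.39, these shares were 5.07% and 4.66%. The median difference of the enzymes was 0.61, and that of all measured probe sets was -0.02. The genes were not alike: the differences ran from -0.29 for LBR to 1.29 for TM7SF2, and 8 of 9 were above 0.

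**Figure D1:**
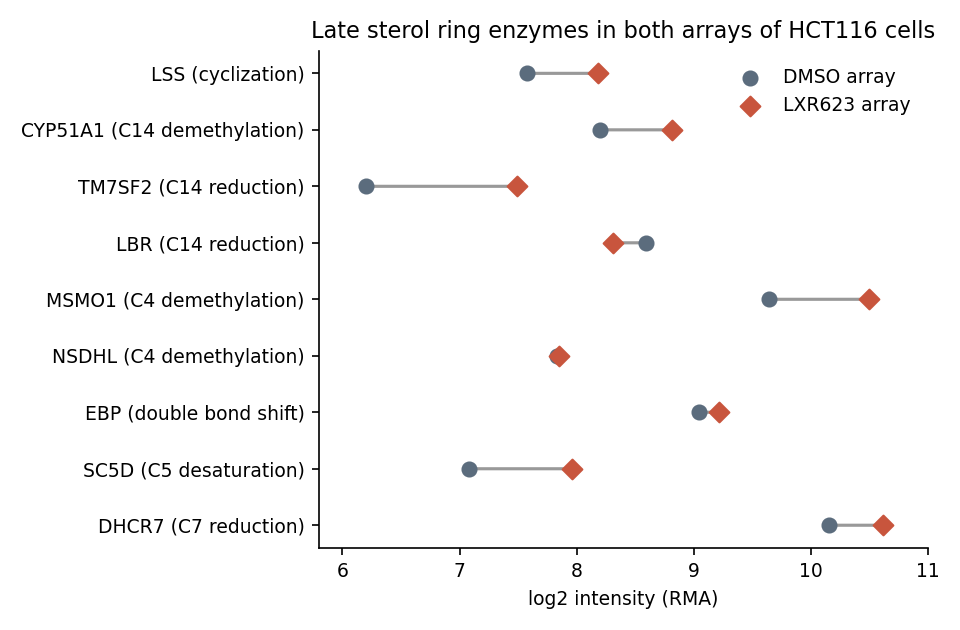
Log2 intensity (x axis) of the 9 late sterol ring enzymes (y axis, in the order of the pathway with the reaction in brackets) in the DMSO array (circles) and the LXR623 array (diamonds), 1 array each, joined by a line. The lines are long for TM7SF2, MSMO1 and SC5D, NSDHL has almost none, and LBR runs the other way. Positions of different genes on the x axis are not comparable, since each probe set has its own brightness.

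LSS, which closes the rings to make lanosterol, had 7.58 with DMSO and 8.18 with LXR623, 1.52-fold higher. CYP51A1, the cytochrome P450 that removes the methyl group at C14, had 8.20 and 8.81, 1.53-fold higher. These enzymes of the opening steps thus lay just past the threshold, with differences of 0.61 each and ranks of 719 and 694 from the highest of 12279 measured probe sets.

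The double bond that CYP51A1 leaves at C14 can be reduced by the products of 2 genes, which went separate ways. TM7SF2, a sterol reductase of the endoplasmic reticulum, had 6.20 with DMSO and 7.49 with LXR623, 2.44-fold higher. It ranked 60 from the highest of 12279. LBR, the lamin B receptor, joins a sterol reductase domain to a part that binds lamin B and chromatin at the inner nuclear membrane. It had 8.60 with DMSO and 8.31 with LXR623, a difference of -0.29 that did not reach the threshold. The difference of TM7SF2 was larger than that of LBR by 1.57 on the log2 scale, and LBR was the 1 gene of the 9 that was below 0.

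The pair of methyl groups at C4 is removed by a set of enzymes that work in turn. MSMO1, the methylsterol oxidase that opens this reaction, had 9.64 with DMSO and 10.49 with LXR623, 1.81-fold higher, and ranked 283. NSDHL, the dehydrogenase that acts next and splits off the carboxyl group, had 7.84 and 7.85, a difference of 0.02. MSMO1 was thus well past the threshold, whereas NSDHL lay near the middle of all measured probe sets, at percentile 54.5. ERG28, the membrane protein that holds the C4 enzymes together in yeast, had 9.54 and 9.97 for the human gene, a difference of 0.43.

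EBP, the isomerase that shifts the double bond of ring B, had 9.05 with DMSO and 9.22 with LXR623, a difference of 0.17. SC5D, the desaturase that adds the double bond at C5, had 7.08 and 7.96, 1.84-fold higher, and ranked 264. DHCR7, which reduces the double bond at C7 and is the enzyme deficient in Smith-Lemli-Opitz syndrome, had 10.15 and 10.62, a difference of 0.46 that stayed under the threshold. DHCR7 was the gene nearest to the threshold from below, and LSS the nearest from above. Genes past 1.5-fold thus stood at the start, in the middle and near the end of the stretch, with NSDHL and EBP between them.

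**Figure D2:**
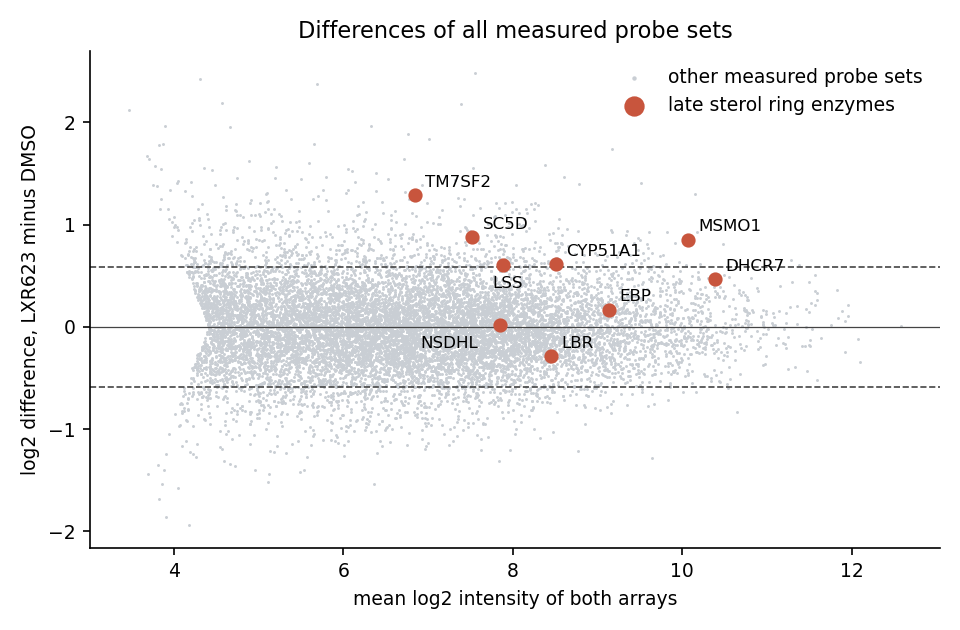
Log2 difference, LXR623 minus DMSO (y axis), against the mean log2 intensity of both arrays (x axis) for 12279 measured probe sets (small grey points) and the 9 late sterol ring enzymes (large named points). Dashed lines mark 1.5-fold in either direction. TM7SF2, SC5D and MSMO1 stand clear above the upper line, CYP51A1 and LSS lie on it, and DHCR7, EBP, NSDHL and LBR lie between the lines.

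The spread of the probe sets of like brightness gives a scale for these values. The central 95% of the 5581 probe sets in the range of the enzymes had differences from -0.69 to 0.76. TM7SF2, SC5D and MSMO1 lay above this range, 6 of the enzymes lay inside it, and 0 lay below. LSS and CYP51A1, although past 1.5-fold, belonged to the 6 inside. This spread is that of other genes between the same arrays and not the error of a gene.

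The DNA before the start of these genes is shown for the pairs that share a reaction and had unlike differences, TM7SF2 and LBR at C14, and MSMO1 and NSDHL at C4. The sequences are the 250 bases before the annotated start in RefSeq, GRCh38.p14, each read 5′ to 3′ on the strand of its gene. They lie at chr11:65111622-65111871 on the plus strand, chr1:225428822-225429071 on the minus strand, chr4:165327419-165327668 on the plus strand and chrX:152830813-152831062 on the plus strand. Capitals mark CCAAT, the motif of the factor NF-Y, which acts beside SREBP at many promoters, or ATTGG, its form on the other strand.
TM7SF2: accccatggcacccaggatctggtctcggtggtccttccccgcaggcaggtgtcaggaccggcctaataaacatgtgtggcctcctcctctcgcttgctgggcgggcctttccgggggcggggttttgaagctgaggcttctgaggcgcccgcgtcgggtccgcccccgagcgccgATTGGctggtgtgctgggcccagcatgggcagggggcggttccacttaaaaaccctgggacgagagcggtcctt
LBR: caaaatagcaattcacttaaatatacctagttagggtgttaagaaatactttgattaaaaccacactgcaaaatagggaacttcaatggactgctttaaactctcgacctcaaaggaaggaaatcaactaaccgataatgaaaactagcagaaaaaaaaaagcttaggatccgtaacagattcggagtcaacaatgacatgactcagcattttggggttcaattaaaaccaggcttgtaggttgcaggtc
MSMO1: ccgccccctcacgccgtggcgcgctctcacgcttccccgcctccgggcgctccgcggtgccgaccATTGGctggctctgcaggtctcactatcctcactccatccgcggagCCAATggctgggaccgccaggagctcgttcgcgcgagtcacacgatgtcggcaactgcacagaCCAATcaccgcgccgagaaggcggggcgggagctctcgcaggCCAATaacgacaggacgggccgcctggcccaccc
NSDHL: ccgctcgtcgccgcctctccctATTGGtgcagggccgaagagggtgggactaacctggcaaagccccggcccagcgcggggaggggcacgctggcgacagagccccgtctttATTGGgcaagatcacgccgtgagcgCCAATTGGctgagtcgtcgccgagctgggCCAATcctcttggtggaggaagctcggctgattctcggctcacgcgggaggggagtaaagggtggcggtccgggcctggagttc

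The promoter of TM7SF2 holds 1 CCAAT motif, at -74 from the start, and that of LBR holds 0. G and C make up 66.4% of the bases shown for TM7SF2 and 36.8% for LBR, where the median of all 35116 promoter windows of RefSeq is 58.0%. The promoter of MSMO1 holds 4 CCAAT motifs, and that of NSDHL holds 5, of which a pair on opposite strands overlap in ccaattgg. Of the 9 genes, NSDHL had the most of these motifs and the difference nearest to 0.

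All 9 genes were found in the table of promoter windows, which run from 250 bases before to 50 bases after the start, with 11 windows in all, because SC5D and DHCR7 have a second annotated start. CCAAT was searched on both strands and was present for 7 of 9 genes, in 8 of 11 windows, and in 34.6% of all windows or 34.9% of the 13400 windows of measured genes. The windows of CYP51A1 and LBR had none. The windows of SC5D overlap, and the CCAAT found in both of them is the same site. The GC box GGGCGG, bound by Sp1, was present on either strand for 7 of 9 genes and in 8 of 11 windows. It stands in 67.6% of the windows of measured genes, a share near that of the enzymes. LSS held 7 GC boxes and TM7SF2 held 4, while LBR and NSDHL held 0. The sterol regulatory element was searched as TCACNCCAC and was in 0 of 11 windows, and in 1.13% of all windows. Of 17 genes of the mevalonate pathway and of SREBP2 control with a window, 1 held it, SREBF2. Of the same 17 genes, 11 held CCAAT and 14 held the GC box. The LXR element was searched as a pair of AGGTCA repeats 4 bases apart, and with GGTCA in their place. It was in 0 of 11 windows in either form, and in 0.0199% and 0.0541% of all windows. The E-box CACGTG was added after the windows had been read. It was found in the window of LSS and in both windows of SC5D, where it is the same site. Of all windows, 7.26% held it. These are matches of letters in short windows that were not tested for binding, and more distant sequence was not searched.

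**Figure D3:**
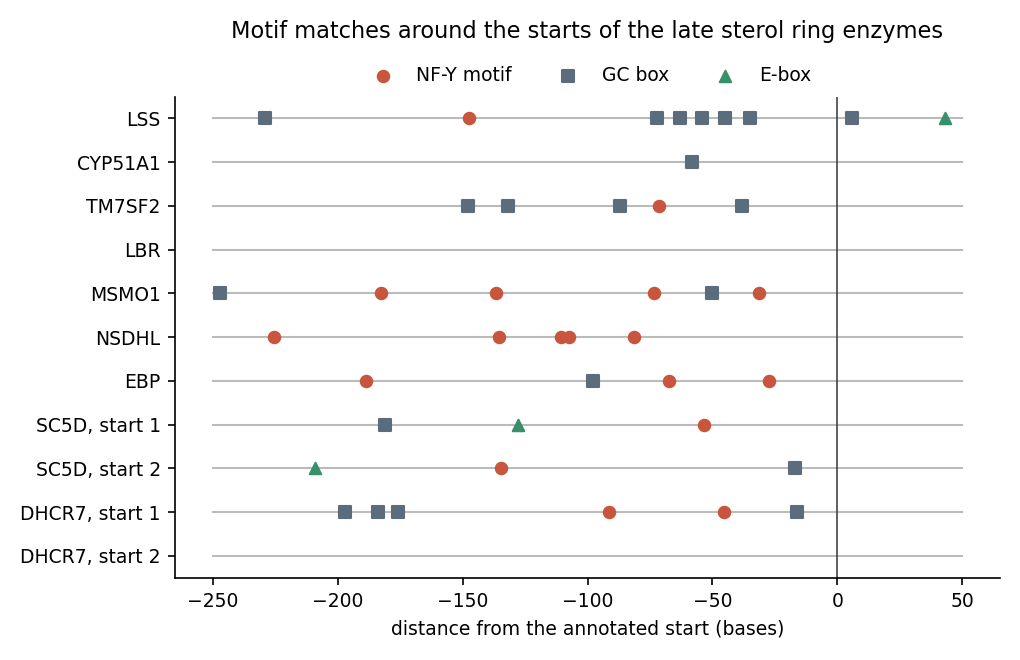
Matches of the NF-Y motif (circles), the GC box (squares) and the E-box (triangles) by distance from the annotated start in bases (x axis) in the 11 promoter windows of the 9 genes (y axis, in the order of the pathway). LSS has a row of GC boxes, NSDHL and MSMO1 have several NF-Y motifs, and LBR and the second start of DHCR7 have no match.

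The enzymes upstream of lanosterol were read out for comparison. Of 9 measured enzymes of the mevalonate and squalene steps, 3 were at least 1.5-fold higher, 0 were lower and all 9 were above 0, with a median difference of 0.36. HMGCS1, which builds the precursor of mevalonate, went from 9.02 to 9.84, SQLE, which supplies the substrate of LSS, from 9.17 to 9.98, and GGPS1, which makes geranylgeranyl diphosphate at a side branch, from 6.15 to 6.81. MVK, the mevalonate kinase, lay nearest to 0 with 0.24. The upstream enzymes thus ranged from 0.24 to 0.82, a narrower span than the late enzymes, whose range was wider at both ends. The difference between these sets of genes was not tested.

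Genes that control SREBP2 or move sterols into the cell lay above 0 in 10 of 10 measured cases, 3 of them at least 1.5-fold higher, with a median of 0.44. SREBF2, which encodes SREBP2, went from 8.18 to 8.86, INSIG1, which holds the SREBP complex in the endoplasmic reticulum and is itself a target of SREBP, from 9.22 to 9.87, and NPC2, which carries cholesterol out of the lysosome, from 9.09 to 9.71. SCAP, the escort of SREBP, lay nearest to 0 with 0.09. Of LXR and its lipid targets, 6 genes reached the level of measurement in both arrays, of which 2 were at least 1.5-fold higher and 0 lower, with a median of 0.51. SREBF1, which encodes SREBP1, went from 7.97 to 8.88, and LPCAT3, a phospholipid-remodeling enzyme, from 8.88 to 9.62. FASN, the fatty acid synthase, had the smallest difference of this list, 0.34. The exporters ABCA1, with 3.58 and 5.14, and ABCG1, with 3.90 and 4.64, reached the level of measurement of 4.42 in the LXR623 array alone, so they are left out of this count and median, a choice made after seeing the data, and their differences are not read as exact.

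**Figure D4:**
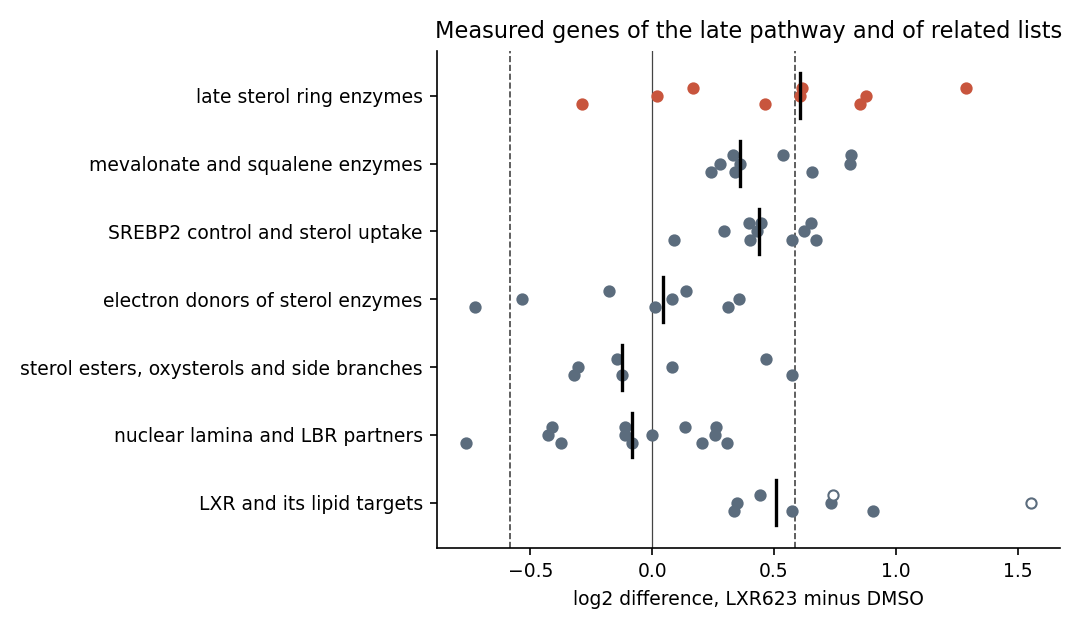
Log2 difference, LXR623 minus DMSO (x axis), of each measured gene (points) of the late sterol ring enzymes and of 6 related lists (y axis), with the median of each list over the filled points as a black bar and 1.5-fold in either direction as dashed lines. Open points are ABCA1 and ABCG1, which were measured in the LXR623 array alone. Every point of the mevalonate enzymes, of SREBP2 control and of the LXR targets lies above 0, whereas the late enzymes hold 1 point below it. Electron donors, side branches and lamina genes lie on both sides of 0.

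CYP51A1, MSMO1 and SC5D need electrons, which POR or the cytochrome b5 system brings to such enzymes. These donors lay on both sides of 0, with a median of 0.05 over 8 measured genes, 0 at least 1.5-fold higher and 1 lower. CYB5A, the cytochrome b5 of the endoplasmic reticulum, went from 7.52 in the DMSO array to 6.79 in the LXR623 array. CYB5R4, a reductase with a b5 domain, had a difference of -0.53. POR, the reductase that serves cytochromes P450, had 8.14 and 8.50, a difference of 0.36, and CYB5R1 lay nearest to 0 with 0.01.

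Genes of sterol esters, oxysterols and side branches had a median of -0.12 over 7 measured genes, and 0 passed 1.5-fold in either direction. They ranged from -0.32 for NCEH1, a cholesteryl ester hydrolase, to 0.58 for EPHX1, a microsomal epoxide hydrolase. SULT2B1, a sterol sulfotransferase, lay nearest to 0 with 0.08. EBPL, a relative of EBP, had -0.12, whereas EBP had 0.17. The enzymes CH25H, CYP27A1, CYP7B1, CYP46A1 and CYP39A1, which add hydroxyl groups to sterols, were under the level of measurement in both arrays.

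LBR was also read beside the nuclear proteins it belongs with. Of 13 measured genes of the lamina and of partners of LBR, 0 were at least 1.5-fold higher and 1 lower, with a median of -0.08. TMPO, a lamin-binding protein of the inner nuclear membrane, went from 9.23 to 8.46. LMNB1 and LMNB2, the B-type lamins to which LBR binds, had differences of -0.43 and -0.41, while LMNA had 0.31. CBX1, CBX3 and CBX5, which encode the HP1 proteins of heterochromatin, had -0.37, -0.11 and 0.26. EMD, which encodes emerin, lay nearest to 0 with 0.000788. The value of LBR, -0.29, lay within the range of these genes and below that of every measured enzyme of sterol synthesis in the lists.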

How the data were processed

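HCT116 cells were measured on 2 arrays, 1 with LXR623 and 1 with DMSO. The authors deposited log2 intensities from RMA. Versions in the submitters' notes are affy 1.36.1 and R 2.15.1. The array design and the genome build are not given in the sources used here. RMA sets the arrays to a common scale, so a change shared by most genes would not be seen. The DMSO array had a median of 4.40 and the LXR623 array of 4.43.

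Probe sets were named from the annotation table of the platform, which gives 22458 of 23786 a single symbol, and 1328 unnamed probe sets entered only the counts over all probe sets. With 1 array per condition no test, error or p-value was computed, and the number of arrays limits the precision. Differences, counts past 1.5-fold and medians were computed with Python 3.11.15, numpy 2.4.6, pandas 2.3.3 and statsmodels 0.14.6, and the procedure was tested on simulated data. All late enzymes were named, and from each other list the measured genes past 1.5-fold and the gene nearest to 0. POR, CYB5R4, the B-type lamins, LMNA, the HP1 genes, ERG28, EBPL and the ends of ranges were picked out after their values were seen. The members and lists were chosen with earlier results of these data known. Promoter windows came from RefSeq, GRCh38.p14. The planned comparison of protein sequences was not made. Alternatives were other filters, thresholds and scalings and the removal of a lowess trend with a fraction of 0.3.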

Additional observations from a re-analysis of the deposited data

How the results depend on the processing

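No paired analysis was possible because each condition has a single array. At a threshold of 2-fold, 1 of the 9 late enzymes was higher, TM7SF2, and 0 were lower, since a larger threshold removes genes by its construction. At a smaller threshold, 0.32 on the log2 scale, 6 were higher and 0 lower, the added gene being DHCR7. A smaller threshold likewise adds genes by its construction. The shares of all measured probe sets past these other thresholds are not given here, so these counts stand without a background. The mean of the differences was 0.51, under the value of 1.5-fold, against a median of 0.61. With no filter on dim probe sets, a filter at the 25th percentile, or a filter on both values, all 9 genes were kept and the counts and the median were as before. Under quantile normalization, centring on the median of all measured probe sets and removal of the lowess trend, the median was 0.62, 0.63 and 0.64, with 5 genes at least 1.5-fold higher and 0 lower. In these 27 values of single genes, 27 kept their side of 1.5-fold and 0 changed sign, and the largest shift was 0.037. RMA had already set the arrays to a common scale, so further scaling or trend removal could move the values little. For LSS and CYP51A1 each of these settings raised the difference, away from the threshold. The kept sides therefore do not show how firmly these genes lie past 1.5-fold. LSS and CYP51A1 lie within 0.03 of the threshold on the log2 scale. Without replicates the array-to-array error of a gene is unknown.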

Other observations

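NSDHL and EBP, the enzymes with the positive differences nearest to 0, are the members that lie on chromosome X. The 7 enzymes on autosomes had a median of 0.61, and 5 of them were at least 1.5-fold higher. Chromosomes were taken from the promoter windows, which assigned one to 16038 of 23786 probe sets, and the rest are left out here. Measured probe sets assigned to chromosome X had a median of 0.02 over 290 genes, of which 4.48% were at least 1.5-fold higher and 5.17% lower. For 8962 measured genes assigned to autosomes the median was -0.03, and the shares were 5.93% and 5.61%. MBTPS2, the X-linked protease that cuts SREBP in the membrane, had a difference of 0.29. This grouping was noticed after the values were seen and was not tested.

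The protein-coding genes on either side of each late enzyme, the nearest by start with a named probe set, were read out after the values of the enzymes were seen. Of these 18 neighbours 13 were measured, with a median of 0.26, of which 2 were at least 1.5-fold higher and 0 were lower. All measured probe sets had a median of -0.02, with 6.30% at least 1.5-fold higher and 5.78% lower. CPE, which encodes carboxypeptidase E and lies beside MSMO1, went from 6.04 in the DMSO array to 7.08 in the LXR623 array. CETN2, a centrin gene beside NSDHL, went from 7.06 to 7.79, while NSDHL itself had a difference of 0.02. Beside TM7SF2, VPS51 had 0.34 and ZNHIT2 had -0.13, against 1.29 for TM7SF2. NADSYN1, which makes NAD and lies beside DHCR7, had 0.47, close to the 0.46 of DHCR7, and ENAH beside LBR had -0.29, as did LBR. MCM3AP beside LSS had -0.15, against 0.61 for LSS. Whether neighbours were alike was not tested.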
